A study of Mus musculus with 9 samples.

Results

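The genes described here were those at which alveolar macrophages (AMs) of tumor-bearing lungs stood apart from both other macrophage populations of the study at the same time. They were chosen by their measured values: the 3 Tumor-AM values of a gene had to lie all above, or all below, its 6 other values, and the Tumor-AM mean and the nearer of the other group means had to differ at least 1.5-fold after 1 was added to each. Of 24346 gene symbols, 602 (2.47%) lay above all 6 and 354 (1.45%) lay below all 6 in the 3 Tumor-AM samples. With the 1.5-fold limit, 110 genes remained, 83 of them higher (0.341% of all symbols) and 27 lower (0.111%). Because Tumor-AM values selected these genes, their distance from the other groups is given below as a description, with no test.

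The 9 samples were macrophages sorted from lungs of C57BL/6 mice aged 10 postnatal weeks, 3 per group. Tumor-AM and Tumor-macrophage came from mice that had received LLC-tdTomato cells (Lewis lung carcinoma, an established lung tumor line of the same strain) in the left lung, and Ctrl-AM came from mice given vehicle. All cells were gated as CD45+ and autofluorescent, and then as Siglec-F+ F4/80+ AMs (Ctrl-AM and Tumor-AM) or Siglec-F- F4/80+ CD11b+ tumor-associated macrophages (Tumor-macrophage). The values were FPKM, fragments scaled to transcript length and to the mapped fragments of the library. A figure legend of the study gives 3 mice for each population. Neither the study nor the labels state whether Tumor-AM and Tumor-macrophage samples came from the same mice.

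The summed FPKM of 10 AM markers (Siglecf, Pparg, Mrc1, Marco, Siglec1, Chil3, Ear1, Ear2, Car4 and Itgax) was 29980 to 35320 in Ctrl-AM, then 26000 to 42150 in Tumor-AM, then 285 to 590 in Tumor-macrophage, and that of 9 tumor-associated macrophage markers was 25.6 to 30.9, 75.8 to 135 and 13830 to 14290, so the measured markers followed the labels. At the estimated depth, an FPKM of 1 on a transcript of 1 kilobase stands for 10.2 to 12.9 reads. Spearman correlations across genes within groups were 0.971 to 0.983. In bulk samples, fewer cells of a type and less RNA per cell cannot be told apart.

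AMs live in the air spaces, take up surfactant lipid and particles, and are normally held in a quiet state by contact with the epithelium. Macrophages make cholesterol from acetyl-CoA through the mevalonate pathway. The pathway is governed by SREBP2, a transcription factor that leaves the endoplasmic reticulum when sterol is low and is cut free in the Golgi. Cytokines of the IL-6 family (IL-6, oncostatin M, LIF) signal through the shared receptor subunit gp130. CD200 is a ligand of the immunoglobulin superfamily, and its inhibitory receptor CD200R1 is well known for restraining AMs.

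Grouped by what their products do, the 83 higher genes held 15 sterol genes, 13 surface receptors and membrane proteins, 12 transcription factors and signalling proteins, 9 cytokines, growth factors and their binding proteins, 9 genes of matrix, proteases and clotting, 8 other enzymes including an iron storage subunit, 7 other genes of lipid handling, 2 short RNAs and 8 others. The 27 lower genes held 6 lymphoid genes, 4 genes of dendritic cells and alternative activation, 4 RNA host, vault RNA and histone genes, 1 short RNA and 12 others. These classes were assigned with the values known. The distance to the nearer group ran from 1.501-fold to 6.58-fold in the higher genes (median 1.77, 26 genes at 2-fold or more) and from 1.501-fold to 7.28-fold in the lower genes (median 1.70, 5 genes at 2-fold or more). Ctrl-AM was the nearer group for 67 of the 83 higher and 22 of the 27 lower genes. The higher genes were mostly well expressed, with a median Tumor-AM mean of 21.3 FPKM and 54 of 83 means at 10 or more. In the lower genes the median was 2.47 FPKM, and 20 of 27 means were under 5. The plot of distances from both populations places the higher genes at the upper right and the lower genes at the lower left.

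**Figure D1:**
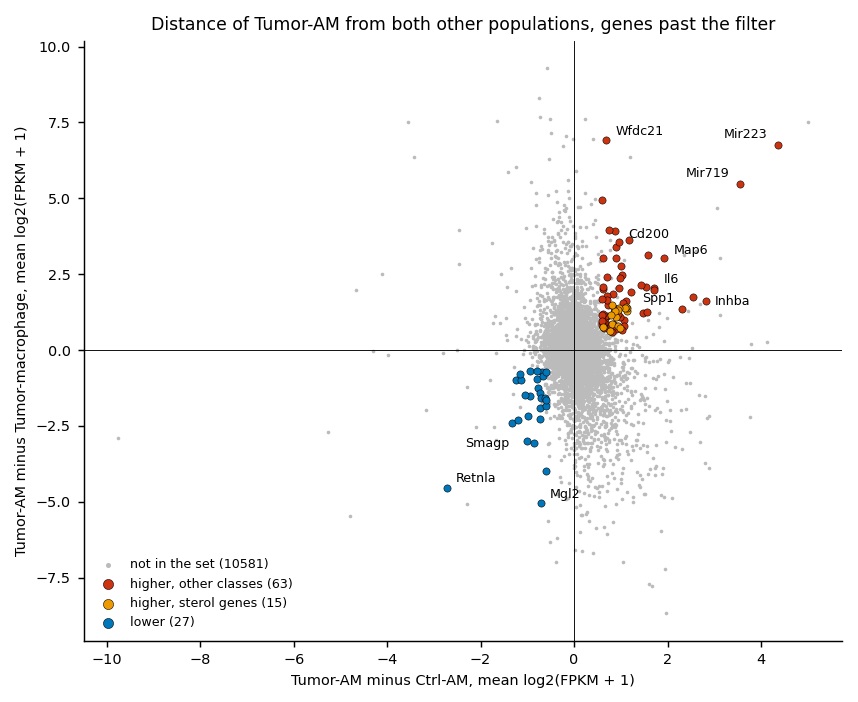
Each point is 1 of the 10686 genes past the filter on low values, with the difference of Tumor-AM from Ctrl-AM on the x axis and from Tumor-macrophage on the y axis, both as means of log2(FPKM + 1). The 78 higher genes past the filter (red and orange) lie right of and above 0 and the 27 lower genes (blue) left of and below 0, as the rule requires; most sterol genes (orange) sit close together.

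The largest single class was that of 15 sterol genes. Among them were Hmgcs1, Mvk, Idi1, Fdps, Sqle, Lss, Cyp51, Tm7sf2, Msmo1, Hsd17b7 and Sc5d, which are enzymes of the cholesterol synthesis pathway, together with Aacs (acetoacetyl-CoA synthetase, which feeds the pathway) and Insig1 (which holds the SREBP complex in the endoplasmic reticulum). Their distance to the nearer group covered a narrow range, 1.55-fold to 2.203-fold with a median of 1.83. Sqle, squalene epoxidase, measured 12.7, 15.9 and 16.5 FPKM in Ctrl-AM, then 28.9, 38.0 and 36.1 in Tumor-AM, then 12.8, 15.5 and 12.4 in Tumor-macrophage. Aacs measured 10.2, 11.9 and 13.3 in Ctrl-AM, then 20.4, 22.9 and 20.5 in Tumor-AM, then 11.1, 12.9 and 10.1 in Tumor-macrophage. In both genes the control and tumor macrophage values ran into each other, and Tumor-AM alone stood above them.

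Idi1, isopentenyl diphosphate isomerase, was at 20.1 ± 3.93 FPKM (SD, n = 3) in Ctrl-AM, then 44.7 ± 8.93 in Tumor-AM, then 15.8 ± 1.75 in Tumor-macrophage. Cyp51, the lanosterol demethylase, was at 20.7 ± 2.93, 45.1 ± 2.38 and 16.5 ± 1.22 in the same order. Both Tumor-AM means were more than 2-fold above either other mean. Hmgcs1, HMG-CoA synthase, differed in that Tumor-macrophage lay clearly under Ctrl-AM, at 12, 14.96 and 12.9 FPKM against 23.2, 19.6 and 22.9, with Tumor-AM at 41.9, 41.4 and 34.3. The smallest distance of the class was that of Mvk, mevalonate kinase, with 7.47 to 9.73 in Tumor-AM against at most 6.38 elsewhere. Fdps, farnesyl diphosphate synthase, and Msmo1, the 4-methylsterol oxidase, were the most abundant enzymes of the class, with Fdps at 53.6 to 72.6 FPKM in Ctrl-AM, then 96.4, 153 and 118 in Tumor-AM, then 49.97 to 62.7 in Tumor-macrophage. Msmo1 measured 58.0 to 67.0, then 103, 125 and 103, then 44.8 to 54.7. Lss (lanosterol synthase), Hsd17b7 and Tm7sf2 were expressed at low levels, with Tumor-AM means of 6.37, 5.53 and 6.89 FPKM, and their distances of 1.72-fold to 1.94-fold were like those of the abundant enzymes. Sc5d, Tm7sf2 and Insig1 were the sterol genes nearer to Tumor-macrophage than to Ctrl-AM. Insig1 measured 35.4, 32.2 and 35.2, then 62.3, 61.1 and 53.3, then 37.7, 37.9 and 37.7. Among the Tumor-AM samples, 10 of the 15 genes were highest in Tumor-AM 2, against 35.9% of all genes past the filter.

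The rest of the pathway was read from a list of 18 cholesterol synthesis enzymes, drawn up after the values had been seen. The set holds 11 of the enzymes, which the rule placed above all 6 others, and the other 7 missed the 1.5-fold limit or the range. Of those 7, the mean was highest in Tumor-AM for 7, and all 3 Tumor-AM values exceeded the 6 others for 5. For the same 7, limma with Benjamini-Hochberg adjustment over all genes tested placed Tumor-AM above Ctrl-AM in 5 cases and above Tumor-macrophage in 6. Over all genes tested, Tumor-AM was called higher than Ctrl-AM in 7.11% and lower in 3.18%, and higher than Tumor-macrophage in 24.4% and lower in 24.2%. Fdft1, squalene synthase, measured 18.4, 17.4 and 18.1 FPKM in Ctrl-AM, then 27.05, 32.97 and 29.2 in Tumor-AM, then 26.4, 22.1 and 28.2 in Tumor-macrophage. Its log2 difference was 0.69 ± 0.11 (SE) from Ctrl-AM (limma adjusted p = 0.00307), and the 0.21 ± 0.11 from Tumor-macrophage missed the threshold (limma adjusted p = 0.125). Ebp, the sterol isomerase, showed the least separation from control AMs, with 55.5 to 61.6 in Ctrl-AM and 57.6 to 64.6 in Tumor-AM.

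Summed over the 7 enzymes outside the set, FPKM was 199 ± 10.4 in Ctrl-AM, then 263 ± 6.70 in Tumor-AM, then 136 ± 1.502 in Tumor-macrophage (SD, n = 3). Of the genes around the pathway, Srebf2, which encodes SREBP2, lay above all 6 others at 29.0 to 30.9 FPKM against 19.8 to 22.9, short of the 1.5-fold limit (log2 difference from Ctrl-AM 0.51 ± 0.08, limma adjusted p = 0.00337). The paralog Srebf1 and the escort gene Scap were not called between Tumor-AM and Ctrl-AM (log2 differences 0.09 ± 0.09 and 0.01 ± 0.08, limma adjusted p = 0.605 and 0.982). Abcg1, which exports cholesterol, ran the other way between the AM groups, at 280 to 295 FPKM in Tumor-AM and 368 to 391 in control AMs. That log2 difference of -0.39 ± 0.11 missed the threshold (limma adjusted p = 0.0514). In Tumor-macrophage Abcg1 was at 28.2 to 40.8, below Tumor-AM (log2 difference 3.08 ± 0.11, limma adjusted p = 6.02e-09). The plot of the pathway shows 14 of these enzymes in order, the 11 in the set with Acat2, Fdft1 and Ebp.

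**Figure D2:**
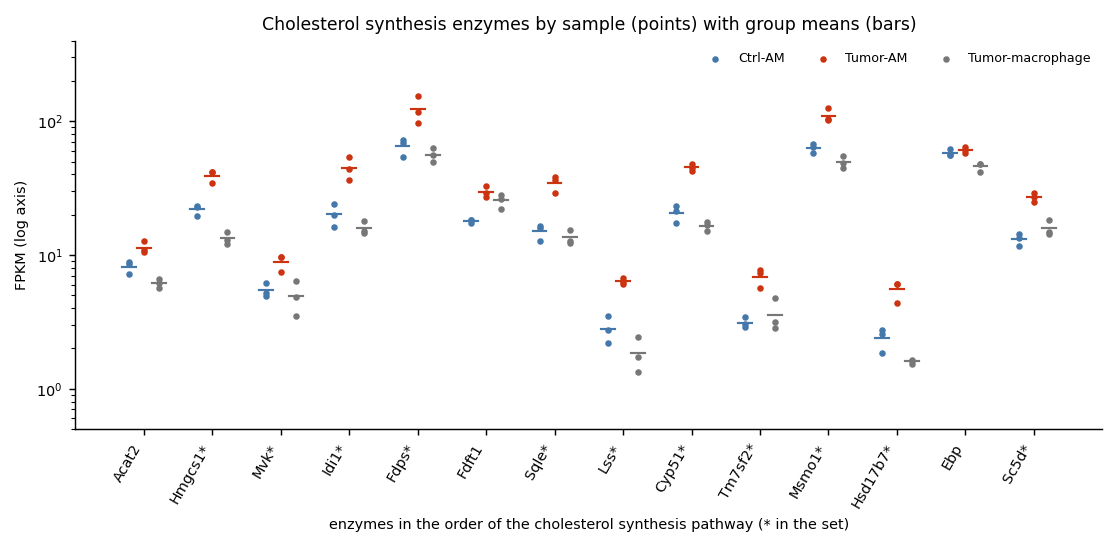
FPKM on a log axis for 14 cholesterol synthesis enzymes in pathway order, with 1 point per sample, bars for group means and an asterisk for the 11 enzymes in the set. Tumor-AM (red) has the highest mean at each plotted step, with wide gaps at Hsd17b7, Sqle and Lss and narrow ones at Ebp and Fdft1.

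Promoter sequence is shown for sterol genes because these members stood apart together and the letters near their starts could be compared. RefSeq promoter windows of GRCm38.p6, from 250 bases before to 50 bases after each annotated start, were found for 53 higher genes, 11 of them sterol genes, and for 18 lower genes. CCAAT (searched on both strands, so also as ATTGG) was present in 10 of the 11 sterol genes with a window (90.9%), in 18 of the 42 other higher genes (42.9%), in 8 of 18 lower genes (44.4%) and in 41.1% of all 27025 genes with a window. Aacs was the sterol gene without it. GGGCGG was present in 10 of the 11 (90.9%) against 38.2% of all, and the median GC content was 64.7% in the sterol windows against 52.8% in all. TCACNCCAC, letters of the sterol regulatory element type, was present in Hmgcs1 alone among the 11, in 3 other higher genes (Spp1, Ftl1 and Aldoc), in 1 lower gene (Htra3) and in 1.44% of all genes. Both CCAAT and TCACNCCAC were picked with the members known, and a match of letters is a description, not a binding site. The 180 bases before the start follow for 5 sterol genes and for Spp1, 5′ to 3′ on the strand of the gene, with TCACNCCAC and CCAAT matches on either strand in capitals. In GRCm38.p6 they lie at chr13:119690171-119690350 (Hmgcs1, plus strand), chr5:114444089-114444268 (Mvk, plus), chr13:8885426-8885605 (Idi1, plus), chr10:76531425-76531604 (Lss, plus), chr8:64733579-64733758 (Msmo1, minus) and chr5:104434931-104435110 (Spp1, plus).
Hmgcs1: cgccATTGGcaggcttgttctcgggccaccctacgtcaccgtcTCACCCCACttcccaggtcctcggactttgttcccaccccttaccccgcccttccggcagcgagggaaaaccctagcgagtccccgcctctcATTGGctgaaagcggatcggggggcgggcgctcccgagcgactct
Mvk: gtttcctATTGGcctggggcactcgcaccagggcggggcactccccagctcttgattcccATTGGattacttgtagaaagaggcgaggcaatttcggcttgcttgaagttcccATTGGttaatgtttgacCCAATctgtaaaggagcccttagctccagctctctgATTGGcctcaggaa
Idi1: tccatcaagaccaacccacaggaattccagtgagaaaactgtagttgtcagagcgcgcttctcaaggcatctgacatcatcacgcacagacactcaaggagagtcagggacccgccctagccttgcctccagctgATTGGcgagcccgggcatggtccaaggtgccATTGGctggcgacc
Lss: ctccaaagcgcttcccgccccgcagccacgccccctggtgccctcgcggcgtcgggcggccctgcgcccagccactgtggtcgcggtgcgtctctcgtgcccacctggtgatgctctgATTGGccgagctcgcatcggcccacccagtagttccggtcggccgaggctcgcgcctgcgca
Msmo1: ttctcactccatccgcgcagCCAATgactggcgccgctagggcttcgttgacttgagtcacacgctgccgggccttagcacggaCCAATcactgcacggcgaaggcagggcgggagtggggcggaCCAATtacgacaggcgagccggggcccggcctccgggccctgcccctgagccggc
Spp1: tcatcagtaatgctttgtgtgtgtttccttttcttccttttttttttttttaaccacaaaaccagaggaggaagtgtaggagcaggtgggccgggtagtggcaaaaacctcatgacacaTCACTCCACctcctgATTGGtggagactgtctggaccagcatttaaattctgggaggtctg

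In Hmgcs1 the TCACNCCAC match begins at -137, between CCAAT matches at -176 and -45. The Mvk stretch holds 5 CCAAT matches and that of Msmo1 holds 3. Spp1 has its TCACNCCAC match at -61 and a CCAAT match at -46, and a second annotated start of Spp1 has neither. The other motifs searched on both strands were TGANTCA (the AP-1 type), TGACGTCA (the cAMP response type), the E-box CACGTG, the interferon type GAAANNGAA and the TATA type. TGANTCA was present in 5 of 53 higher genes (9.43%) and 0 of 18 lower genes against 8.97% of all. TGACGTCA was in none of the 53 or 18 (2.03% of all), CACGTG in 6 and 3 (8.09% of all), GAAANNGAA in 2 and 1 (9.76% of all) and the letters TATAAA in 7 and 5 (15.7% of all).

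Outside cholesterol synthesis, the 7 other lipid genes included both diacylglycerol acyltransferases, which make the last bond of triglyceride. Dgat1 measured 63.5, 80.7 and 63.3 FPKM in Ctrl-AM, then 114, 103 and 125 in Tumor-AM, then 49.1, 33.0 and 39.0 in Tumor-macrophage, and it left the set under TPM scaling (each sample rescaled to the same sum). Dgat2 measured 66.7, 68.2 and 86.0 in Ctrl-AM, then 122, 115 and 135 in Tumor-AM, then only 5.88 to 8.75 in Tumor-macrophage. Plin2, the main lipid droplet coat protein and no member, ran opposite to them between the AM groups only. It was at 1457 to 1592 FPKM in Tumor-AM and 1756 to 1926 in control AMs (log2 difference -0.29 ± 0.07, limma adjusted p = 0.0309). Tumor-macrophage was lower, at 639 to 697, with Tumor-AM above it by 1.18 ± 0.07 (limma adjusted p = 2.4e-07), the direction of Dgat1 and Dgat2. Cav1, the coat protein of caveolae, had 28.6 to 32.3 FPKM in Ctrl-AM, then 61.4, 96.1 and 124 in Tumor-AM, then 35.6 to 39.2 in Tumor-macrophage. Ppap2b (a lipid phosphate phosphatase, RefSeq symbol Plpp3), Aqp9 (a glycerol channel), Napepld (which releases N-acylethanolamines) and Ptgr1 (prostaglandin reductase) lay 1.59-fold to 2.52-fold from their nearer group.

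The secreted signals held several of the wider distances. Inhba (chr13:16004256-16031609), which encodes the activin A subunit, measured 3.39, 6.53 and 2.00 FPKM in Ctrl-AM, then 39.5, 24.5 and 32.7 in Tumor-AM, then 10.8, 10.9 and 7.52 in Tumor-macrophage. The Tumor-AM mean was 8.11 times that of Ctrl-AM and 3.31 times that of Tumor-macrophage, so the tumor macrophages held an intermediate level. Fst, the activin antagonist follistatin, was in the set as well but at low level, with 1.25, 0.271 and 0.807 in Tumor-AM and at most 0.212 elsewhere, and it did not pass the filter. Fstl1, a follistatin-like secreted protein, measured 1.60, 1.85 and 5.04 in Tumor-AM and 0.792 to 1.49 elsewhere. None of the 3 activin receptor genes read beside them (Acvr1b, Acvr2a, Acvr2b) was called by limma between Tumor-AM and Ctrl-AM (adjusted p = 0.663, 0.371 and 0.81).

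Fstl1 moved with markers of another cell type. The summed FPKM of 10 fibroblast and smooth muscle markers was 6.57 to 9.44 in Ctrl-AM, then 16.4 to 90.7 in Tumor-AM, then 11.97 to 19.2 in Tumor-macrophage, and it was highest in Tumor-AM 3, where Lum read 35.1, Dcn 25.7 and Col3a1 21.0. Pdgfra reached 1.495 and Col1a1 1.37 in that sample, and no marker of the list was at 0 in all 3 samples of any group. Without Tumor-AM 3, Fstl1 left the set. Nnmt (nicotinamide N-methyltransferase), which measured 4.06, 4.49 and 11.8 FPKM in Tumor-AM against 0 to 0.478 in Ctrl-AM and 0.469 to 2.53 in Tumor-macrophage, stayed in it. The part of these markers in either result was not tested beyond that.

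The IL-6 family supplied 3 members, Il6, Osm and Lif. Osm, oncostatin M, measured 125, 162 and 165 FPKM in Ctrl-AM, then 526, 372 and 607 in Tumor-AM, then 140, 99.7 and 137 in Tumor-macrophage. Il6 (chr5:30013114-30019975) measured 4.26, 4.22 and 4.63, then 23.0, 13.4 and 14.9, then 4.80, 1.49 and 4.47 in the same order. Lif measured 2.62, 2.66 and 3.47, then 5.33, 7.77 and 7.08, then 0.495, 0.505 and 0.442. For Il6 and Osm the 2 other populations overlapped, while Lif was lowest in all 3 Tumor-macrophage samples. Osm (chr11:4236785-4241026) and Lif (chr11:4257568-4272514) are neighbours, 16542 bases apart. On the list of other gp130 ligands, receptors and transducers, Il27 lay below all 6 others (1.04 to 2.09 FPKM against at least 2.30) without reaching the fold limit, and Clcf1, Il6st and Il6ra were not called between Tumor-AM and Ctrl-AM (limma adjusted p = 0.988, 0.838 and 0.69). Cish, an inhibitor of cytokine signalling, was in the set, at 42.05, 23.96 and 29.6 in Tumor-AM against 13.2 to 22.7 elsewhere. It left the set under TPM scaling and without Tumor-AM 1 or Tumor-macrophage 2. Whether the level of Cish follows gp130 signals was not tested. Socs3, also an inhibitor of cytokine signalling, was higher in Tumor-AM (9.59 to 13.4 FPKM) than in Ctrl-AM (4.37 to 5.30), by 1.12 ± 0.12 on the log2 scale (limma adjusted p = 0.000599). It was far higher still in Tumor-macrophage (80.0 to 95.7) and so was not in the set.

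Of a list of chemokines and cytokines, 41 of 49 genes passed the filter, and 4 of them (Il6, Osm, Lif and Spp1) were in the set. Of the other 37, limma called Tumor-AM higher than Ctrl-AM for 7 and lower for 1, and higher than Tumor-macrophage for 4 and lower for 27. Among all genes tested, the shares were 7.11% and 3.18% against Ctrl-AM, and 24.4% and 24.2% against Tumor-macrophage. These comparisons share the Tumor-AM samples, so their calls are not independent. The remaining members of the secreted class were Lrg1 (13.4, 39.6 and 31.8 FPKM in Tumor-AM, at most 13.01 elsewhere), S100a8 (86.0, 144 and 134, at most 81.4 elsewhere) and Tsku, a secreted antagonist of growth factors (0.938, 3.12 and 2.36, at most 0.835 elsewhere, below the filter). Lrg1 left the set under TPM and quantile scaling. S100a8 left it under TPM scaling and without Ctrl-AM 1, Tumor-AM 2 or Tumor-AM 3, and S100a8 is also a neutrophil marker. Its partner S100a9 was at 3.28 to 9.99 FPKM in Tumor-AM, below the 20.4 to 32.2 of control AMs. The summed level of the 8 neutrophil markers measured, S100a8 among them, was 147 to 175 in Ctrl-AM, then 151 to 214 in Tumor-AM, then 95.8 to 145 in Tumor-macrophage. Without S100a8 it was 74.8 to 94.8, then 56.8 to 69.3, then 44.9 to 74.7, and the part of neutrophil RNA in the S100a8 result was not tested.

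Among genes of matrix, proteases and clotting, Spp1, osteopontin (chr5:104435111-104441053), was the most abundant. It measured 775, 772 and 712 FPKM in Ctrl-AM, then 3182, 3755 and 4295 in Tumor-AM, then 1415, 1257 and 1703 in Tumor-macrophage. As with Inhba, tumor macrophages lay between the AM groups. Fn1, fibronectin, measured 49.5, 68.3 and 57.9, then 142, 120 and 147, then 40.3, 32.3 and 33.3. Mmp19, a secreted metalloproteinase, measured 49.97, 58.1 and 53.4, then 116, 176 and 157, then 35.3, 30.2 and 31.9. In Fn1 and Mmp19 Tumor-AM was more than 2-fold above Ctrl-AM, and Tumor-macrophage was the lowest group. Mmp19 shares 2739 bases with Tmem198b, which was in the set too, and without known strand the reads of that stretch cannot be assigned with certainty.

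Ctsk (cathepsin K) and Acp5 (tartrate-resistant acid phosphatase) are best known as osteoclast proteins of bone resorption, and both are expressed in macrophages. Ctsk measured 423, 384 and 387 FPKM in Ctrl-AM, then 562, 785 and 866 in Tumor-AM, then 33.2 to 56.7 in Tumor-macrophage. Acp5 measured 255 to 291, then 551, 434 and 563, then 302 to 347. The control and tumor macrophages thus differed widely for Ctsk and little for Acp5. Thbd, thrombomodulin, lay 2.04-fold above Ctrl-AM, at 37.0 to 40.6 FPKM against 17.5 to 20.1, with 4.56 to 7.29 in Tumor-macrophage. Klk1b11, of a family of near-identical kallikrein genes, met the rule narrowly, its lowest Tumor-AM and highest Tumor-macrophage values both reading 1.79. Wfdc21 and Ccdc80 were high in AMs, at 697 to 794 and 25.5 to 26.4 in Ctrl-AM and at most 11.1 and 0.470 in Tumor-macrophage, with Tumor-AM means 1.64-fold and 1.52-fold above Ctrl-AM. On a list of coagulation, proteolysis and matrix genes, 3 (Thbd, Mmp19, Fn1) were in the set. Of the other 28 tested, limma called Tumor-AM higher than Ctrl-AM for 11 and lower for 0 (7.11% and 3.18% of all genes). Against Tumor-macrophage it called Tumor-AM higher for 7 and lower for 18 (24.4% and 24.2% of all genes).

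**Figure D3:**
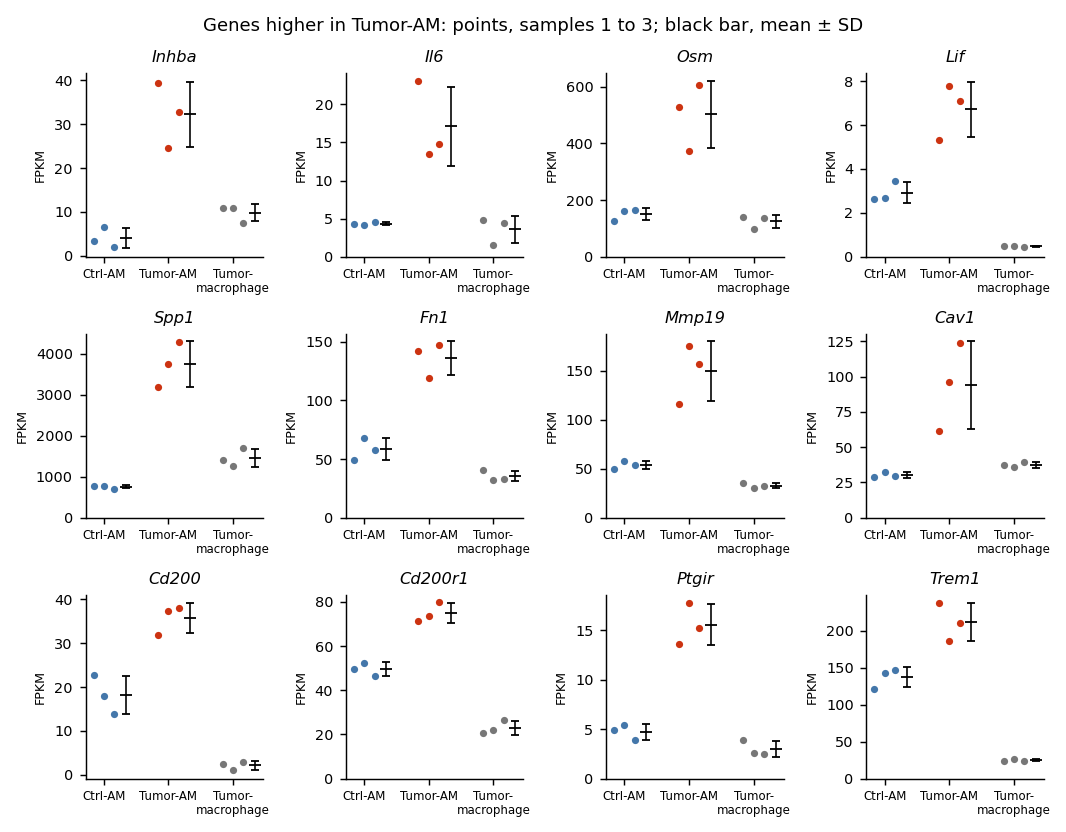
FPKM of 12 higher genes, with points for samples 1 to 3 of each group and a black bar for the mean ± SD (n = 3). Tumor-macrophage lies between the AM groups for Inhba, Spp1 and Cav1, beside Ctrl-AM for Il6 and Osm, and far below both for Lif, Cd200 and Trem1.

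The surface proteins included a ligand, its receptor and a related receptor. Cd200 measured 22.7, 17.9 and 13.9 FPKM in Ctrl-AM, then 31.8, 37.3 and 37.9 in Tumor-AM, then 2.56, 1.06 and 2.96 in Tumor-macrophage. Its receptor Cd200r1 measured 49.5, 52.5 and 46.2, then 71.2, 73.4 and 80.1, then 20.5, 22.0 and 26.4. Cd200r2, which belongs to the activating type of the family, measured 1.11, 0.648 and 1.06, then 4.71, 1.96 and 3.31, then 0.757, 0.170 and 0.208. All 3 genes thus had the same order, Tumor-AM above Ctrl-AM above Tumor-macrophage. Cd200r1 (chr16:44765736-44794977) and Cd200r2 (chr16:44867097-44915840) are neighbours. Cd200r4, also of the activating type, lay above all 6 others but under the fold limit, at 127 to 140 FPKM against 86.9 to 100 in Ctrl-AM (log2 difference 0.48 ± 0.11, limma adjusted p = 0.0221). Cd200r1 was among the genes closest to the limit, at 1.51-fold. It left the set under TPM and quantile scaling, and without Ctrl-AM 3 or Tumor-AM 3. Genes of this family resemble each other, so the split of reads between them is uncertain.

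Ptgir, the prostacyclin receptor, measured 4.90, 5.45 and 3.88 FPKM in Ctrl-AM, then 13.7, 17.8 and 15.2 in Tumor-AM, then 3.88, 2.60 and 2.46 in Tumor-macrophage. Trem1, a receptor that amplifies inflammatory signals, measured 122, 142 and 147, then 238, 186 and 211, then 23.3 to 26.1. Both genes were highest in all 3 Tumor-AM samples, and Trem1 left the set under TPM scaling and without Ctrl-AM 1 or Tumor-AM 1. Cd177 (a neutrophil surface glycoprotein) and Btnl6 (a butyrophilin-like gene) were lower expressed, with Tumor-AM means of 1.72 and 1.02 FPKM. Gprc5c, an orphan receptor, measured 5.405, 7.87 and 4.63, then 11.02, 11.3 and 13.2, then 0.139 to 0.977. Sema4b (a semaphorin), Plxdc1 and Colec12 (a scavenger receptor) lay 1.52-fold to 1.79-fold above Ctrl-AM, their nearer group. Pira2, an activating immunoglobulin-like receptor of a family of near-identical genes, stood just inside the limit at 1.501-fold.

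Transcription factors in the set were Fosl1 (an AP-1 subunit), Nr4a1 (an orphan nuclear receptor induced by many stimuli), Nfil3 (a bZIP repressor), Nfe2 (a bZIP factor of the NF-E2 complex) and Foxr1. Nr4a1 measured 83.1, 106 and 87.8 FPKM in Ctrl-AM, then 228, 134 and 172 in Tumor-AM, then 121, 88.7 and 102 in Tumor-macrophage. Nfil3 measured 89.9 to 110, then 212, 154 and 213, then 95.3 to 130. Nfe2 measured 5.96 to 6.81, then 14.2, 12.2 and 15.4, then 0.975 to 1.57. The control and tumor macrophages overlapped for Nr4a1 and Nfil3 and not for Nfe2. Nr4a1 left the set without Tumor-AM 1, its highest sample. Fosl1 was at 4.90 to 5.85 FPKM in Tumor-AM and 0.960 to 3.10 elsewhere, and shares 2776 bases with Ccdc85b, also in the set.

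On a list of 32 immediate-early and AP-1 genes, Fosl1 and Nr4a1 were the members. Of the other 29 tested, limma called Tumor-AM higher than Ctrl-AM for 8 and lower for 0, and higher than Tumor-macrophage for 7 and lower for 14. No member stood on several of the function lists: NF-kappaB targets and feedback (31 genes), glycolysis and hypoxia (34), amino acid response and ER stress (32), interferon-stimulated genes (41), cell cycle (37) and cytoskeleton, adhesion and migration (37). Members were 0.341% (higher) and 0.111% (lower) of all symbols, so a list of this size can hold none at those shares. The lists do not hold every gene of a function, and Aldoc, a glycolytic enzyme, and Rgcc, a cell cycle regulator, are members that stand on none of them. Of 40 interferon-stimulated genes tested, limma called Tumor-AM higher than Ctrl-AM for 20 and lower than Tumor-macrophage for 39. The NF-kappaB (31 tested), glycolysis (30), cytoskeleton (30), amino acid response (27) and cell cycle (36) lists were read likewise. In that order, 13, 9, 11, 2 and 1 genes were called higher than in Ctrl-AM, and 2, 0, 1, 1 and 1 lower. Against Tumor-macrophage, 5, 3, 4, 8 and 3 were higher and 17, 22, 18, 8 and 16 lower. Over all genes tested, the shares were 7.11% and 3.18% against Ctrl-AM, and 24.4% and 24.2% against Tumor-macrophage.

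Among signalling genes, the kinase gene Pim3 measured 31.7 to 39.8 FPKM in Ctrl-AM, then 80.8, 56.8 and 87.8 in Tumor-AM, then 27.1 to 38.8 in Tumor-macrophage, and Rgcc, a regulator of the cell cycle and of cell signalling, 259 to 353, then 503, 597 and 570, then 138 to 162. Sh3bp5, Adcy4, Stac2 and Dennd3 lay 1.54-fold to 2.03-fold from their nearer group. Map6, a microtubule-binding protein, had the widest distance to the nearer group among protein-coding higher genes, 3.86-fold, with 2.03, 2.65 and 1.65 FPKM in Ctrl-AM, then 8.82, 9.86 and 14.3 in Tumor-AM, then 0.142 to 0.639 in Tumor-macrophage. Smim5, which overlaps Recql5, followed a like pattern with 1.17 to 4.11, then 8.93 to 9.87, then 0.119 to 0.245. Of the enzymes, Ftl1, the ferritin light chain, was the most abundant gene of the set, at 24788 to 29190 FPKM in Ctrl-AM, then 32473, 50324 and 43051 in Tumor-AM, then 22030 to 23978 in Tumor-macrophage. Ftl1 left the set under TPM and under quantile scaling, and without Ctrl-AM 3 or Tumor-AM 2. Aldoc, the glycolytic enzyme aldolase C, measured 38.2, 36.1 and 41.7, then 57.0, 62.1 and 59.9, then 12.2 to 16.95, and left the set under the same scalings and without Ctrl-AM 2 or Tumor-AM 2. Fut7, which builds selectin ligands, measured 3.92 to 6.43, then 12.2, 9.77 and 11.4, then 1.398 to 3.23. Aldoc and Fut7 had the order of the CD200 genes, with Tumor-macrophage lowest. Ppp1r3b (a subunit that targets a phosphatase to glycogen), Mocos, Rpusd3 and Trmt61b lay 1.56-fold to 1.94-fold from their nearer group, and Egfem1, Tmcc1 and the gene models 6430548M08Rik and 2200002D01Rik 1.53-fold to 1.64-fold.

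The 3 short RNA symbols were Mir223 and Mir719 (higher) and Mir703 (lower). These are reads over hairpin genes in libraries of poly(A) RNA and do not measure mature miRNA. Mir223 was at 50.3, 0 and 1.74 FPKM in Ctrl-AM, then 153, 50.3 and 156 in Tumor-AM, then listed at 0 in Tumor-macrophage, so that its lowest Tumor-AM and highest Ctrl-AM value were nearly equal, and it left the set under each of the 3 other scalings. Mir719 was at 0 to 50.6, then 71.8 to 223, then 0 to 32.4. Mir703, the most abundant of the lower genes, was at 1651, 1447 and 1769, then 714, 1018 and 548, then 1484, 1380 and 1565. The control and tumor macrophages overlapped for Mir703, and all 3 Tumor-AM values lay below them.

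The lower genes were fewer and lower expressed, and several are known from cells other than AMs. Retnla, a secreted protein of alternative activation that macrophages make under IL-4, was the furthest from its nearer group, 7.28-fold. It also stood on the list of AM identity genes, as did the higher gene Ctsk. Of the other 36 tested there, limma called Tumor-AM higher than Ctrl-AM for 3 and lower for 7 (7.11% and 3.18% of all genes). Against Tumor-macrophage it called 31 higher and 5 lower (24.4% and 24.2% of all genes). Retnla (chr16:48842609-48844461) measured 9.39, 3.48 and 25.4 FPKM in Ctrl-AM, then 0.222, 2.45 and 0 in Tumor-AM, then 26.3, 56.1 and 33.1 in Tumor-macrophage. Its values spread widely within each group. Mgl2, a C-type lectin of alternatively activated macrophages and dendritic cells, measured 6.19, 4.47 and 4.47, then 2.77, 1.96 and 3.43, then 113, 106 and 143. Cd209a, a DC-SIGN family lectin of dendritic cells, measured 7.21, 4.25 and 4.25, then 1.29, 1.00 and 2.12, then 16.9, 6.92 and 14.2. Batf3, a factor of dendritic cell development, measured 5.10 to 7.11, then 2.90 to 4.80, then 12.2 to 17.8, just inside the limit. In all 4 genes Tumor-macrophage was highest and Tumor-AM lowest.

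The lymphoid genes were Cd79a and Cd79b (the signalling subunits of the B cell receptor), Ly6d (a marker of B cell precursors), Ptprcap (a partner of CD45 in lymphocytes), Rhoh (a GTPase of blood cells) and Gpr171. Cd79a (chr7:24897497-24901858) measured 5.67, 9.12 and 7.08 FPKM in Ctrl-AM, then 2.78, 1.57 and 3.59 in Tumor-AM, then 22.1, 10.9 and 18.3 in Tumor-macrophage. Cd79b measured 2.55, 4.18 and 2.96, then 2.01, 0.564 and 1.62, then 22.9, 14.7 and 17.7. Ly6d measured 6.21 to 9.45, then 3.40, 1.49 and 5.89, then 11.2 to 28.1. They thus had 1 order of groups. Tumor-AM 2 was the lowest sample in 17 of all 27 lower genes, among them 5 of the 6 lymphoid genes. The lymphoid exception was Gpr171, a G protein-coupled receptor, at 6.70, 9.02 and 11.8, then 6.21, 5.06 and 3.91, then 20.6 to 22.2. Ptprcap measured 3.70 to 4.59, then 1.75 to 3.09, then 5.90 to 11.9.

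Markers of B cells and dendritic cells were read beside these genes, and some of them are members. The 5 B cell markers measured (Ms4a1, Pax5 and the members Cd79a and Cd79b among them) summed to 12.7 to 16.9 FPKM in Ctrl-AM, then 3.15 to 7.49 in Tumor-AM, then 31.5 to 58.3 in Tumor-macrophage. The 3 that are no members summed to 3.18 to 4.51, then 1.02 to 2.28, then 5.99 to 13.4, and neither of the 2 past the filter was called by limma between Tumor-AM and Ctrl-AM. Ms4a1, just outside the limit at 1.498-fold, was at 1.41 to 1.93, then 0.671 to 0.935, then 3.12 to 6.67. Pax5 was at 0 in all 3 Tumor-AM samples and at most 0.180 elsewhere. The 7 dendritic cell markers, Cd209a among them, summed to 15.4 to 18.2, then 7.81 to 14.9, then 25.2 to 56.5. Without Cd209a the sum was 10.9 to 11.6, then 6.81 to 13.04, then 18.3 to 39.6, so Tumor-AM and Ctrl-AM overlapped. None of the 4 other dendritic cell markers past the filter was called by limma between them, with Ccr7 means of 8.32 ± 1.07 (Ctrl-AM) against 8.30 ± 3.09 FPKM (Tumor-AM; adjusted p = 0.935). The 9 T and NK cell markers measured did not share this order, at 6.68 to 9.82, then 8.56 to 21.1, then 31.7 to 56.2. The sort for autofluorescence, F4/80 and Siglec-F or CD11b is one that would remove lymphocytes, and the part of other cells in these values was not tested.

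**Figure D4:**
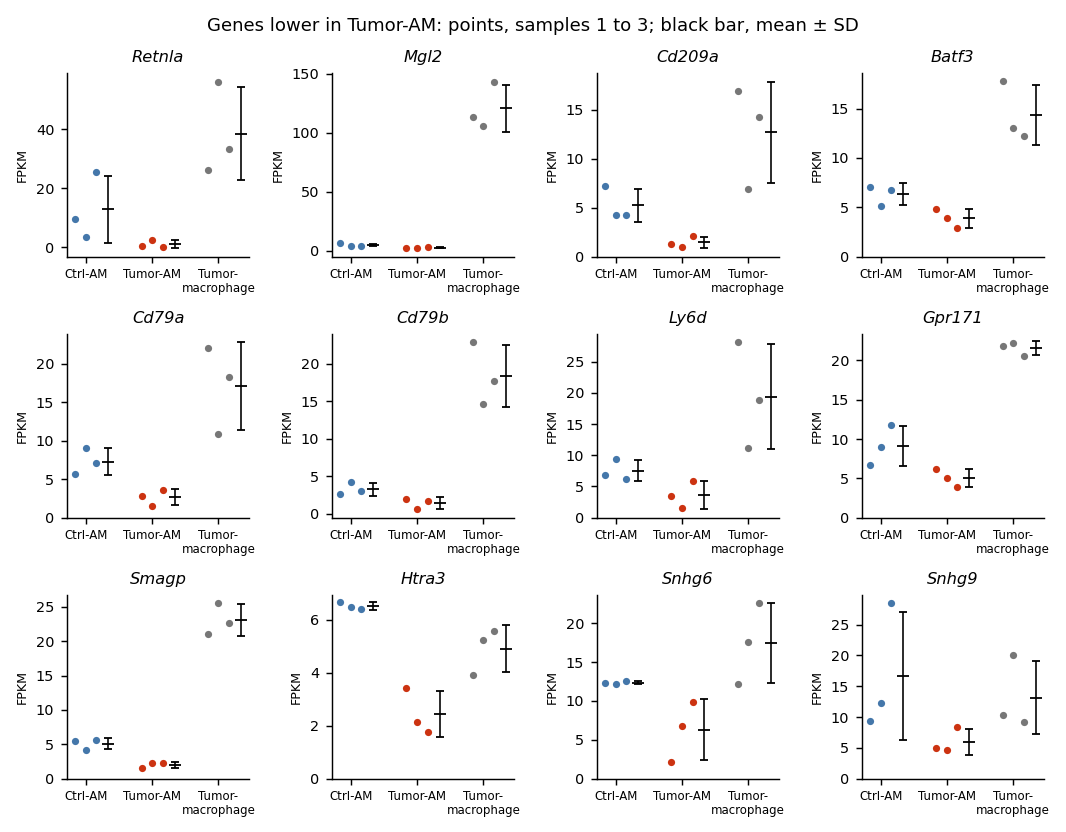
FPKM of 12 lower genes, with points for samples 1 to 3 of each group and a black bar for the mean ± SD (n = 3). Tumor-macrophage is the highest group except for Htra3 and Snhg9, and Retnla and Snhg9 show the widest spread within Ctrl-AM.

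Of the other lower genes, Smagp (a small membrane glycoprotein) measured 4.15 to 5.57 FPKM in Ctrl-AM, then 1.48 to 2.31 in Tumor-AM, then 21.0 to 25.5 in Tumor-macrophage, and Htra3 (a secreted serine protease) 6.405 to 6.68, then 1.77 to 3.42, then 3.91 to 5.57. The RNA host genes Snhg6 (2.17, 6.81 and 9.91 in Tumor-AM, at least 12.2 elsewhere) and Snhg9 (4.56 to 8.35, at least 9.17 elsewhere) overlap other genes, Snhg9 with the far more abundant Rps2, so their values are uncertain. Hist1h4d belongs to a family of near-identical histone genes. Fxyd2, a regulator of the sodium pump, measured 0.610 to 0.696 FPKM in Ctrl-AM, then 0.246, 0 and 0 in Tumor-AM, then 10.8, 20.3 and 18.03 in Tumor-macrophage. Gbp8, a guanylate-binding protein, measured 9.44, 10.8 and 9.32, then 8.79, 3.72 and 4.99, then 36.9, 26.7 and 27.7. In Fxyd2 and Gbp8 the distance of Tumor-AM from Ctrl-AM was small beside that of both from Tumor-macrophage. Fxyd2, Gbp8, Chac2, Sult1a1, Hepacam2, Oxld1, Rfwd3, Vaultrc5, Gm15706, 0610009L18Rik and 5430427O19Rik completed the set, and all but Gbp8 (8.79 FPKM) and Vaultrc5 (9.53) had Tumor-AM values of at most 6.17.

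At the 1.5-fold limit, the last higher genes inside were Pira2 (1.501-fold), Cd200r1 (1.506) and Ccdc80 (1.523), and the first outside were Galns (1.498), Syt8 (1.492) and Itgb2 (1.491). The last lower genes inside were Batf3 (1.501), Rhoh (1.504) and Sult1a1 (1.513), and the first outside were Ms4a1 (1.498), Ccdc163 (1.495) and Cd69 (1.484). Cd69, an early activation marker of lymphocytes, was well expressed, with a Tumor-AM mean of 23.0 FPKM against 34.7 in its nearer group Ctrl-AM. Leaving out 1 sample moved the lower count most, from 27 to 48 without Tumor-AM 1 and to 54 without Tumor-AM 3, with 26 and 23 genes shared, and without Tumor-AM 2 it was 26 with 18 shared. The higher count was 83 to 109 when each sample was left out in turn. Of the higher genes, 54 stayed in the set under each of 3 other scalings and without each of the 9 samples, among them Inhba, Osm, Il6, Spp1, Mmp19, Cd200 and 14 of the 15 sterol genes (Mvk left it), and 13 lower genes did so. Besides the losses given with single genes, Ccdc80, Plxdc1, Sh3bp5 and 2200002D01Rik left the set under TPM and quantile scaling, Wfdc21, Sema4b, Mocos, Egfem1 and Ccdc85b under TPM, Pira2 under median ratios and quantile scaling, and Klk1b11 under all 3. Among the lower genes, Mgl2, Batf3, Fxyd2, Gbp8, Gpr171, Ptprcap, Rhoh and Snhg6 each left it when at least 1 of the samples was omitted.

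The order of the 2 other populations was read from limma over all 10686 genes past a filter of FPKM at least 1 in at least 3 samples. The rule used these values too, and it treats the 2 groups alike. A higher gene with Tumor-macrophage far above Ctrl-AM needed Tumor-AM values higher still, and one with it far below needed them above Ctrl-AM. The reverse held for lower genes. The split of calls therefore rests on values that took part in the choice of the members, and it is given as a description. Relative to Ctrl-AM, limma called Tumor-macrophage higher for 27.7% and lower for 27.1% of all genes, with a median log2 difference of -0.01. Of the 83 higher genes, 78 passed the filter (2200002D01Rik, Btnl6, Dennd3, Fst and Tsku did not). Of these 78, 3 were called higher (Spp1, Inhba and Ptgr1), 34 lower and 41 neither, with a median log2 difference of -0.36. Of the 27 lower genes, which all passed the filter, 15 were called higher and 0 lower in Tumor-macrophage, with a median of 0.88. After rescaling to TPM, which moved the median of all genes in this comparison from -0.01 to -0.22, the split was 2 higher and 48 lower of 80 for the higher genes and 13 higher and 1 lower for the lower genes, against 2193 and 4529 of all genes.

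By class, 4 of the 15 sterol genes (Hmgcs1, Msmo1 and Cyp51 among them) had a lower call in Tumor-macrophage relative to Ctrl-AM and 11 had no call. These calls and those that follow rest on values that took part in the choice of the members. The classes were assigned with the values known, so the counts by class are descriptions. Hmgcs1 had a log2 difference of -0.68 ± 0.11 (limma adjusted p = 0.000462). The calls of Cyp51 (-0.30) and Msmo1 (-0.35) were each lost without Ctrl-AM 3 (-0.22 and -0.31) and without Tumor-macrophage 1 (-0.31 and -0.29), and that of Cyp51 also without Ctrl-AM 1 (-0.27) or Tumor-macrophage 3 (-0.25). Sqle had one of -0.14 ± 0.14 (limma adjusted p = 0.413). In the matrix class 6 of 9 were lower, with Wfdc21 at -6.23 ± 0.17 (limma adjusted p = 5.68e-10), and 7 of 12 surface genes, with Cd200 at -2.62 ± 0.24 (limma adjusted p = 4.63e-06). The lipid gene Dgat2 was at -3.20 ± 0.14 (limma adjusted p = 1.6e-08) and the transcription factor gene Nfe2 at -1.75 ± 0.13 (limma adjusted p = 1.22e-06).

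Inhba was called higher by 1.199 ± 0.30 (limma adjusted p = 0.00597) and Spp1 by 0.94 ± 0.13 (limma adjusted p = 0.000109). Il6 and Osm were not called (-0.32 ± 0.30 and -0.26 ± 0.19, limma adjusted p = 0.384 and 0.265). The call of Ptgr1 (0.36) was lost without Ctrl-AM 2 or 3 (0.39 and 0.27), without Tumor-macrophage 1 or 3 (0.36 and 0.29) and under TPM (0.15). All 4 genes of dendritic cells and alternative activation were higher, led by Mgl2 at 4.33 ± 0.17 (limma adjusted p = 9.4e-09), as were 5 of 6 lymphoid genes, all but Rhoh (0.11 ± 0.12, limma adjusted p = 0.46). Retnla (1.81 ± 0.62, limma adjusted p = 0.029) lost its call without Ctrl-AM 1 or 2 (1.79 and 1.18) and without Tumor-macrophage 2 or 3 (1.51 and 1.88), and Ly6d (1.19) without Ctrl-AM 1 or 3 (1.15 and 1.08) and without Tumor-macrophage 1 or 3 (0.89 and 1.16). Of the other lower genes, Fxyd2 was higher by 3.36 ± 0.20 (limma adjusted p = 1.9e-07) and Gbp8 by 1.52 ± 0.23 (limma adjusted p = 0.000233). None of the 4 RNA host, vault RNA and histone genes was called.

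**Figure D5:**
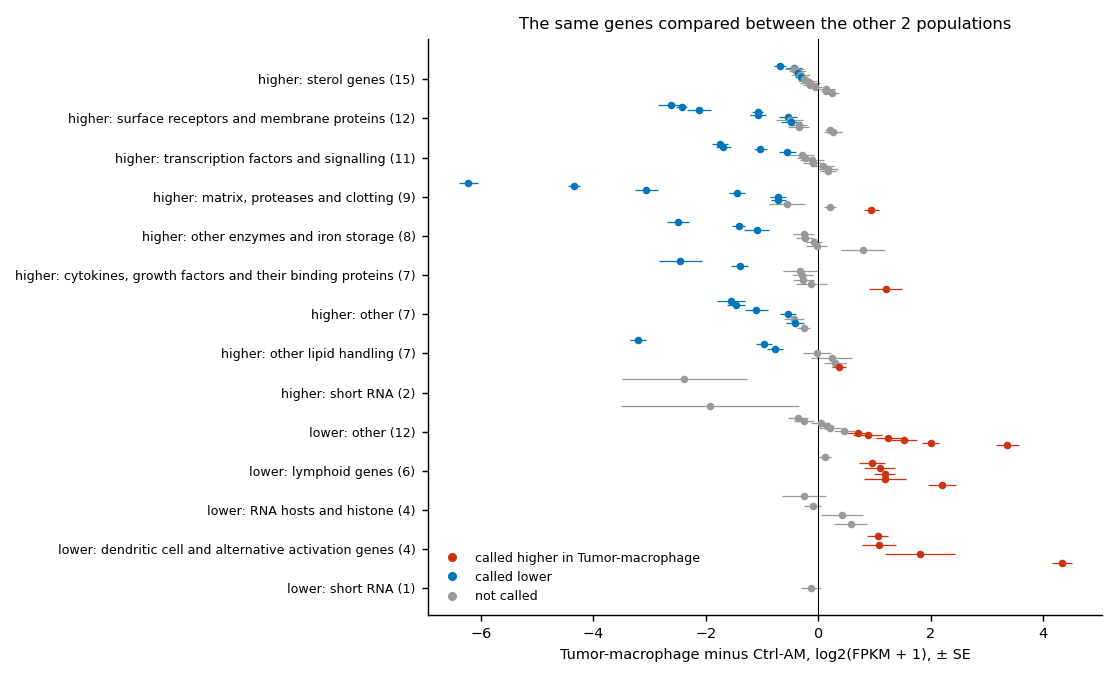
Log2 difference of Tumor-macrophage from Ctrl-AM (log2(FPKM + 1), ± SE from limma) for the 78 higher and 27 lower genes tested, 1 point per gene, in rows by direction and class with the number of genes. Sterol genes cluster near 0 (median -0.25), most matrix and surface genes lie left of 0, and dendritic cell and lymphoid genes lie right of 0. The rule used these values and treats both other groups alike, so by itself it bars neither side of 0.

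On the chromosomes (RefSeq positions, GRCm38.p6), a few members were close together. Besides Osm with Lif and the Cd200r pair, Dgat2 and Map6 lie 84066 bases apart on chromosome 7, Plxdc1 and Stac2 49954 bases apart on chromosome 11, and Cd200r2 and Ccdc80 177567 bases apart on chromosome 16. Cd177 (higher) and Cd79a (lower) are 137163 bases apart on chromosome 7, so neighbours did not always share a direction. In all, 18 members overlap another gene of the files.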

How the data were processed

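RNA of 9 sorted macrophage samples was measured by poly(A) RNA sequencing. Per the labels and methods, the authors used SMART-Seq HT for cDNA, a Nextera kit for libraries, HiSeq sequencing (75 bases, 1 end), alignment to mm10 by TopHat2 2.1.1 with Bowtie2, and Cufflinks (Cuffdiff 2.2.1 in the submitters' processing notes) for the FPKM they deposited. Annotation, strand and the handling of reads with several hits are not given in the sources used here. FPKM divides by transcript length and mapped reads, so a few abundant RNAs can shift all other values; sums per sample ran from 635560 to 785745. FPKM are not counts, and depth was estimated from the spacing of values under 0.6; these estimates cover counting error only, since reads are not independent molecules after PCR.

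Groups came from sample titles. Members were found by the rule on FPKM with a pseudocount of 1. Group means of log2(FPKM + 1) were fitted with limma 3.58.1 (R 4.3.3, trend in the prior variance, all 9 samples, two-sided, Benjamini-Hochberg, threshold 0.05), checked on simulated data; the pseudocount understates changes of low genes. Members and lists were chosen with earlier results of these data known. Named were the 30 members per direction furthest from the nearer group at 5 FPKM or more, list members, genes beside the limit and short RNAs; the remaining members, the sterol, gp130, CD200, activin and triglyceride lists and their genes, and the CCAAT and TCACNCCAC motifs were added after values were seen. Figures used Python 3.11.15. Alternatives varied the pseudocount, fold limit, filter, scaling, prior variance, samples fitted, replicate block and samples left out. Some genes of the set and of the lists are not reported here by name.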

Additional observations from a re-analysis of the deposited data

How the results depend on the processing

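The number of higher genes was 128 with a pseudocount of 0.1, 26 with a 2-fold limit and 126 when group means alone were used (an alternative chosen after seeing the data), and that of lower genes was 102, 5 and 55. A smaller pseudocount or no range adds low or scattered genes by construction. Rescaling to TPM gave 72 higher and 46 lower genes, median ratios 80 and 27, quantile normalization 78 and 35, and the filter 78 and 27. Leaving out each sample in turn gave 83 to 109 higher and 26 to 54 lower genes (48 without Tumor-AM 1, 54 without Tumor-AM 3; the cause was not tested).

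In Tumor-macrophage against Ctrl-AM, leaving out samples gave 2 to 4 calls higher and 30 to 36 lower in the higher set, and 10 to 15 higher and 0 to 1 lower in the lower set. The count of lower genes called lower was 0, and 1 under TPM, under quantile normalization and without Tumor-AM 1 (the cause was not tested). With the replicate block, which takes the replicate number as a factor, calls were 2 and 34 for the higher set and 15 and 0 for the lower set. Deviations of same-numbered samples correlated weakly (r = -0.06 to 0.16, and 0.03 to 0.11 between the populations of tumor mice) and were not over 0.1 in every pair, so the numbers were not taken as a pairing. Whether mice were shared is not known. Of the recomputed log2 differences of single members called in this comparison, 821 kept their call and 53 lost it, and none changed direction. An FPKM of 1 stands for 10.2 to 12.9 reads per kilobase and smaller values for fewer, which limits the lower genes most.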
